A study of Homo sapiens with 12 samples.

Results

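The genes described here are 9 enzymes of ammonia, glutamine and urea metabolism, which are GLUL, GLUD1, CPS1, ASS1, ASL, ARG2, CAD, OAT and ODC1. They were chosen by name with earlier results of these data known, so counts of calls among them are descriptions. All 9 were found among the 25733 genes of the deposited expression table. The study sequenced RNA of HCT116, a colon cancer line long kept in culture, to see how ammonia and TGF-β alter transcription, with 3 libraries in each of 4 groups. The groups were untreated control cells, cells given TGF-β, cells given NH4Cl as a source of ammonia, and cells given NH4Cl plus TGF-β. According to the methods text, NH4Cl was used at 10 mM for 24 h, and TGF-β at 200 pM for the last 1 h after 23 h of vehicle or NH4Cl, whereas the labels carry neither dose nor time. Nothing in the labels or methods says whether replicates came from separate cultures, so p-values measure the spread between these samples, which may be technical.

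Ammonia is released when amino acids and nucleotides are broken down, and in the colon it is also made by bacteria. Cells fix it through a few reactions: glutamine synthetase (GLUL) joins it to glutamate, glutamate dehydrogenase (GLUD1) joins it to 2-oxoglutarate or releases it again, and in liver carbamoyl phosphate synthetase (CPS1) feeds it into the urea cycle. Argininosuccinate synthase (ASS1) and argininosuccinate lyase (ASL) of that cycle make arginine, arginase 2 (ARG2) splits arginine into urea and ornithine, and ornithine then goes to ornithine aminotransferase (OAT) or to polyamines through ornithine decarboxylase (ODC1), while CAD starts pyrimidine synthesis from glutamine nitrogen.

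Expression is given as FPKM, fragments per kilobase of exon scaled by a total for each library, so levels of different genes are compared per length. How the authors obtained that total is not known here. From the FPKM steps, 14807630 to 18191998 reads per library fell on genes (median 15484798). Replicate 3 of every group stood apart from replicates 1 and 2: the read total by which the authors had scaled was 0.964 to 0.969 times the recovered reads in the 4 libraries of replicate 3 and 1.02 to 1.03 times in the other libraries. The label of a colon epithelial line was checked against listed markers. All 9 of the colon epithelial markers were in the table, with summed FPKM of 2282 to 3427 (KRT8 or KRT18 the most abundant in every library), although KRT20 at 0.0583 to 0.416 and LGALS4 at 0.732 to 1.70 FPKM were low. Summed FPKM was 0.555 to 1.16 for 2 of 5 hepatocyte markers in the table (ALB the most abundant), 0.552 to 2.19 for 3 of 4 leukocyte markers (LYZ), 1.29 to 2.97 for 4 of 4 fibroblast markers (COL1A1) and 1.56 to 6.84 for 3 of 3 endothelial markers (VWF), while CYP3A4 and COL1A2 were among the markers listed at 0 in some libraries. With NH4Cl against control some markers moved the same way in 3 of 3 pairs of same-numbered libraries: EPCAM, VIL1, CDX2, CD3E, PDGFRB and VWF were higher, and CDH1, KRT8, KRT18, KRT19, LGALS4, ALB and LYZ were lower. Of the endothelial markers VWF was at 1.54, 1.66 and 3.90 FPKM in control replicates 1 to 3 and 2.47, 2.75 and 5.67 with NH4Cl, whereas CDH5 was lower in 2 of 3 pairs and PECAM1, at 0.00750 to 0.0911 FPKM, higher in 2 of 3. ALB was at 1.07, 0.965 and 0.839 FPKM in control and 0.595, 0.562 and 0.574 with NH4Cl, and KRT19 at 563, 537 and 764 in control and 422, 422 and 570.1 with NH4Cl. With both agents against control VWF, PECAM1, CDH5, COL1A1, PDGFRB, DCN, CD3E, EPCAM, VIL1 and CDX2 were higher in 3 of 3 pairs, and ALB, CYP3A4, LYZ, CDH1, KRT19 and KRT20 were lower in 3 of 3. With both against TGF-β VWF, PECAM1, COL1A1, PDGFRB and EPCAM were higher in 3 of 3 pairs, CDH5 was lower in 2 of 3, and ALB, CYP3A4, COL1A2, CDH1 and KRT19 were lower in 3 of 3. The part of these markers in the results below was not tested. The markers missing from these counts were not analysed here. In bulk RNA a change per cell and a change in which cells carry the transcript cannot be told apart.

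In untreated cells the levels spanned a wide range. ODC1 was the most abundant at 227 ± 18.4 FPKM (mean ± SD, n = 3), followed by ASS1 at 114 ± 6.15, GLUD1 at 49.0 ± 5.72, CAD at 38.4 ± 7.97, OAT at 36.8 ± 4.47, ARG2 at 15.1 ± 4.45, GLUL at 8.45 ± 1.48 and ASL at 6.69 ± 0.437 FPKM. CAD and OAT overlapped in FPKM, as did GLUL and ASL, so the order within each of these pairs lies inside their spread. CPS1, the step that admits ammonia to the urea cycle in liver, was close to absent at 0.146 ± 0.0449 FPKM. Its mean over all libraries was under 1 FPKM, the minimum for a test, so 8 of the 9 enzymes were tested.

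**Figure D1:**
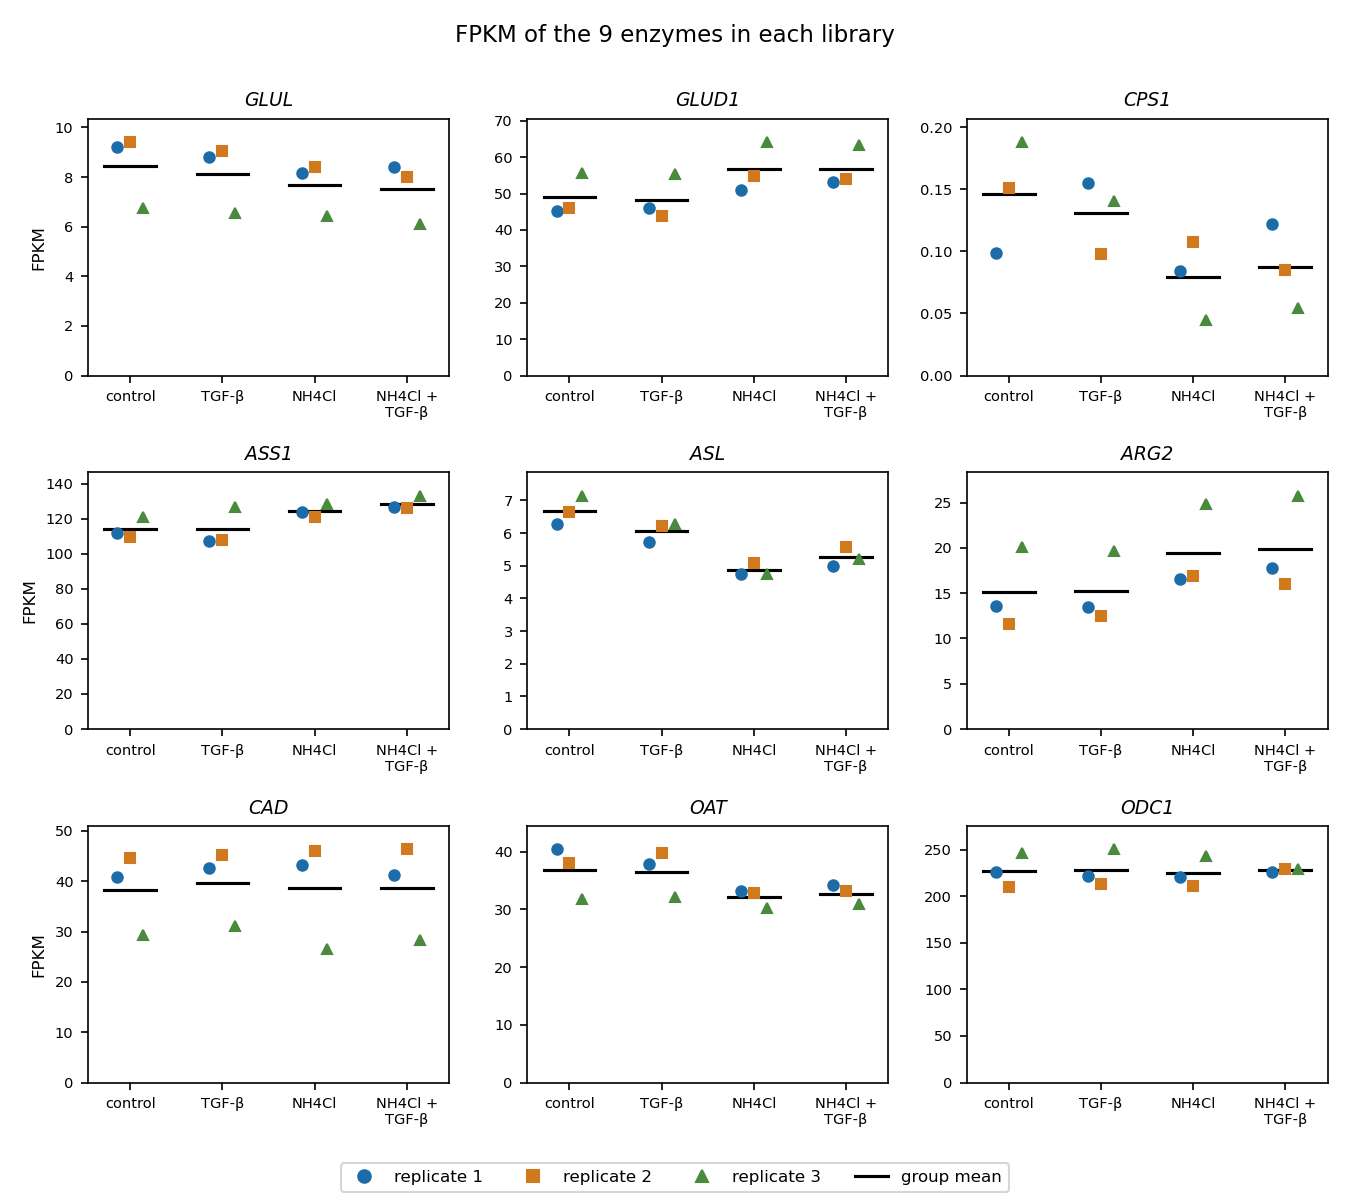
FPKM of the 9 enzymes (vertical axes, each starting at 0) in the 4 groups (horizontal axes); points are single libraries, with 1 symbol for each replicate number, and bars are group means. ASL lies lower in the NH4Cl libraries (4.74 to 5.08 FPKM) than in the control libraries (6.27 to 7.14 FPKM), and replicate 3 stands apart for ARG2, GLUL and CAD in every group.

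CPS1 rested on very few reads. There were 18, 28 and 30 reads in control replicates 1, 2 and 3, 31, 16 and 22 with TGF-β, 14, 19 and 7 with NH4Cl, and 21, 14 and 10 with both. CPS1 FPKM was lower with NH4Cl than in control in 3 of 3 pairs, and lower with both agents than with TGF-β in 3 of 3, while the ranges of the groups overlapped. With both agents against control it was higher in 1 pair and lower in 2. With so few reads these differences were not tested.

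ASS1 adds aspartate to citrulline, which brings a second nitrogen atom into the cycle. Its FPKM was 112, 109 and 121 in control replicates 1 to 3, 107, 108 and 127 with TGF-β, 124, 121 and 128 with NH4Cl, and 127, 126 and 133 with both. Within a replicate number the library with NH4Cl was above its control in 3 of 3 pairs, and all libraries with both agents exceeded all control libraries, whereas NH4Cl alone overlapped with control. The change with NH4Cl, on the log2(FPKM + 1) scale used for every fold change here, was 0.12 (95% CI −0.039 to 0.28) and did not pass 0.05, the threshold for p-values adjusted by Benjamini-Hochberg over all 12341 tested genes (limma adjusted p = 0.618). A second fit took the replicate number as a block, which removes what same-numbered libraries share. This is above all the distance of replicate 3, since replicates 1 and 2 were about as alike across numbers as within them. The block gave a limma adjusted p of 0.0648 for ASS1. It rests on the differences within replicate numbers, so agreement of pairs is not separate support for a call with the block.

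ASL, the next enzyme, splits argininosuccinate into arginine and fumarate, and showed the largest fall of the 8 tested enzymes with NH4Cl. Its FPKM was 6.27, 6.65 and 7.14 in control replicates 1 to 3, 5.72, 6.23 and 6.26 with TGF-β, 4.74, 5.08 and 4.74 with NH4Cl, and 4.99, 5.57 and 5.22 with both, from 219 to 365 reads a library. The lowest control library lay above every NH4Cl and combined library, but was almost level with the highest TGF-β library (6.266 and 6.265 FPKM). The NH4Cl and combined groups overlapped with each other only. With NH4Cl, ASL fell by 0.39 on the log2 scale (95% CI −0.53 to −0.25; limma adjusted p = 0.0374 without a block and 0.00119 with the replicate block), lower in 3 of 3 pairs. Without the block the call was lost when any library other than TGF-β replicate 3 was left out (limma adjusted p = 0.0502 to 0.160). ASL shares exon sequence on the same strand with a second annotated protein-coding gene, AC068533.4, not analysed here, so its values are uncertain to that extent.

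ARG2, the mitochondrial arginase, moved the other way. Its FPKM was 13.6, 11.6 and 20.1 in control replicates 1 to 3, 13.5, 12.5 and 19.6 with TGF-β, 16.6, 16.9 and 24.9 with NH4Cl, and 17.8, 16.0 and 25.7 with both. Replicate 3 was the highest library in every group, so the groups overlapped, but within each replicate number the library with NH4Cl was above its control in 3 of 3 pairs. The change with NH4Cl was 0.36 (95% CI −0.19 to 0.91, limma adjusted p = 0.701), and with the replicate block ARG2 rose by the same 0.36 (95% CI 0.26 to 0.46, limma adjusted p = 0.00139). Leaving out 1 library without the block gave 0.18 to 0.57. Exons of ARG2 overlap those of VTI1B on the opposite strand, and whether strand was used in counting is not known, so reads in the overlap cannot be told apart. The difference for VTI1B was −0.16 with NH4Cl (replicate block, limma adjusted p = 0.0827, lower in 3 of 3 pairs).

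Because ASL and ARG2 had the largest fall and rise, their promoters are printed, from 250 bases before to 50 after the RefSeq start (GRCh38.p14, plus strand for both). The ASL window is chr7:66075569-66075868 and the ARG2 window is chr14:67619670-67619969. All 9 enzymes matched, with 14 such windows, and both strands were searched for CACGTG (the E-box), TGATGNAA (the element bound by ATF4), TGACNNNGC (the antioxidant response element) and, added after the sequences were seen, TGACGTCA (the cyclic AMP response element). Capitals mark a match to any of these motifs, which do not overlap in the windows printed.
ASL: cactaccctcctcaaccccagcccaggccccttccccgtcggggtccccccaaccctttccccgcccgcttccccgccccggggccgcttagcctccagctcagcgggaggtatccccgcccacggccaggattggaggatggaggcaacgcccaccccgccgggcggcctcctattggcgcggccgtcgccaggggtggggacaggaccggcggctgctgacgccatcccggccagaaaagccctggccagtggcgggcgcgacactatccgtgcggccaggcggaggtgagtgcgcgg
ARG2: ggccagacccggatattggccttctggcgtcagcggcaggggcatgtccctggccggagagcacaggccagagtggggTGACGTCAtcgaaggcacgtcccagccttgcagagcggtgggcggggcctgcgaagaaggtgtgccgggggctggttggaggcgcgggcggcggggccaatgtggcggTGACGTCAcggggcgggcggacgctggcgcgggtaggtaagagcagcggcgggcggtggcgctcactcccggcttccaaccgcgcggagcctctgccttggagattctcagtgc
ARG2 held TGACGTCA at 2 places, with first bases 172 and 64 before the start, and ASL held none of the 4 motifs. Among 35116 windows of the same length in the table, 1.85% held TGACGTCA, 7.26% CACGTG, 3.62% TGATGNAA and 13.3% TGACNNNGC. CACGTG was found for CPS1, ASS1 and ODC1, TGACNNNGC for OAT and ODC1, and TGATGNAA for 0 of the 9 enzymes. These matches are descriptions of the letters only.

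GLUL and GLUD1 join ammonia to glutamate and to 2-oxoglutarate. GLUL FPKM was 9.21, 9.40 and 6.74 in control replicates 1 to 3, 8.82, 9.04 and 6.56 with TGF-β, 8.18, 8.41 and 6.42 with NH4Cl, and 8.39, 8.005 and 6.10 with both. Replicate 3 was the lowest library of each group, and each library with NH4Cl was below its same-numbered control. The change of GLUL with NH4Cl was −0.12 and did not pass the threshold (limma adjusted p = 0.897, and 0.0784 with the replicate block, lower in 3 of 3 pairs). Leaving out 1 library without the block gave −0.26 to −0.011.

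GLUD1 FPKM was 45.3, 46.1 and 55.6 in control replicates 1 to 3, 45.9, 43.9 and 55.2 with TGF-β, 51.1, 54.7 and 64.1 with NH4Cl, and 53.1, 54.0 and 63.4 with both. Replicate 3 was again apart, here the highest, and the groups overlapped although 3 of 3 pairs were higher with NH4Cl. The change was 0.20 (95% CI −0.062 to 0.47, limma adjusted p = 0.610 without the block), and with the replicate block GLUD1 rose by 0.20 (95% CI 0.13 to 0.28, limma adjusted p = 0.00471). Leaving out 1 library without the block gave 0.11 to 0.30. GLUD1 exons overlap those of SHLD2 on the opposite strand, for which the change was −0.065 (replicate block, limma adjusted p = 0.519). Pseudogene copies that could share reads are annotated for GLUD1 (5, of which 2 were listed with a mean of at most 1.33 FPKM), ASS1 (11, of which 3 were listed with at most 0.960 FPKM), ASL (1, at 0.187 FPKM) and GLUL (4, of which 0 were analysed here).

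Downstream of arginase, OAT turns ornithine towards glutamate and proline. OAT FPKM was 40.4, 38.1 and 31.8 in control replicates 1 to 3, 37.8, 39.7 and 32.1 with TGF-β, 33.1, 32.9 and 30.3 with NH4Cl, and 34.2, 33.1 and 30.9 with both. Replicates 1 and 2 with NH4Cl lay below those of control, and replicate 3 differed least, so that the groups overlapped. The change was −0.18 (95% CI −0.40 to 0.037, limma adjusted p = 0.566), and with the replicate block OAT fell by 0.18 (95% CI −0.29 to −0.075, limma adjusted p = 0.0339, lower in 3 of 3 pairs). Leaving out 1 library without the block gave −0.28 to −0.11.

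ODC1 and CAD, the entries to polyamines and pyrimidines, had group means close to those of control. ODC1 ranged from 210.1 to 247 FPKM in control libraries, from 213 to 250.4 with TGF-β, from 211 to 243 with NH4Cl and from 226 to 229.7 with both. CAD ranged from 29.4 to 44.7 FPKM in control libraries, from 31.0 to 45.2 with TGF-β, from 26.6 to 46.0 with NH4Cl and from 28.2 to 46.4 with both, replicate 3 being the lowest library of each group. With NH4Cl the change was −0.017 for ODC1 (95% CI −0.12 to 0.082 with the replicate block, limma adjusted p = 0.845) and −0.0076 for CAD (95% CI −0.12 to 0.10 with the replicate block, limma adjusted p = 0.940). Without the block the intervals were wider, −0.20 to 0.16 for ODC1 and −0.56 to 0.55 for CAD. The changes themselves switched sign in some other fits, so no direction is given for either gene.

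**Figure D2:**
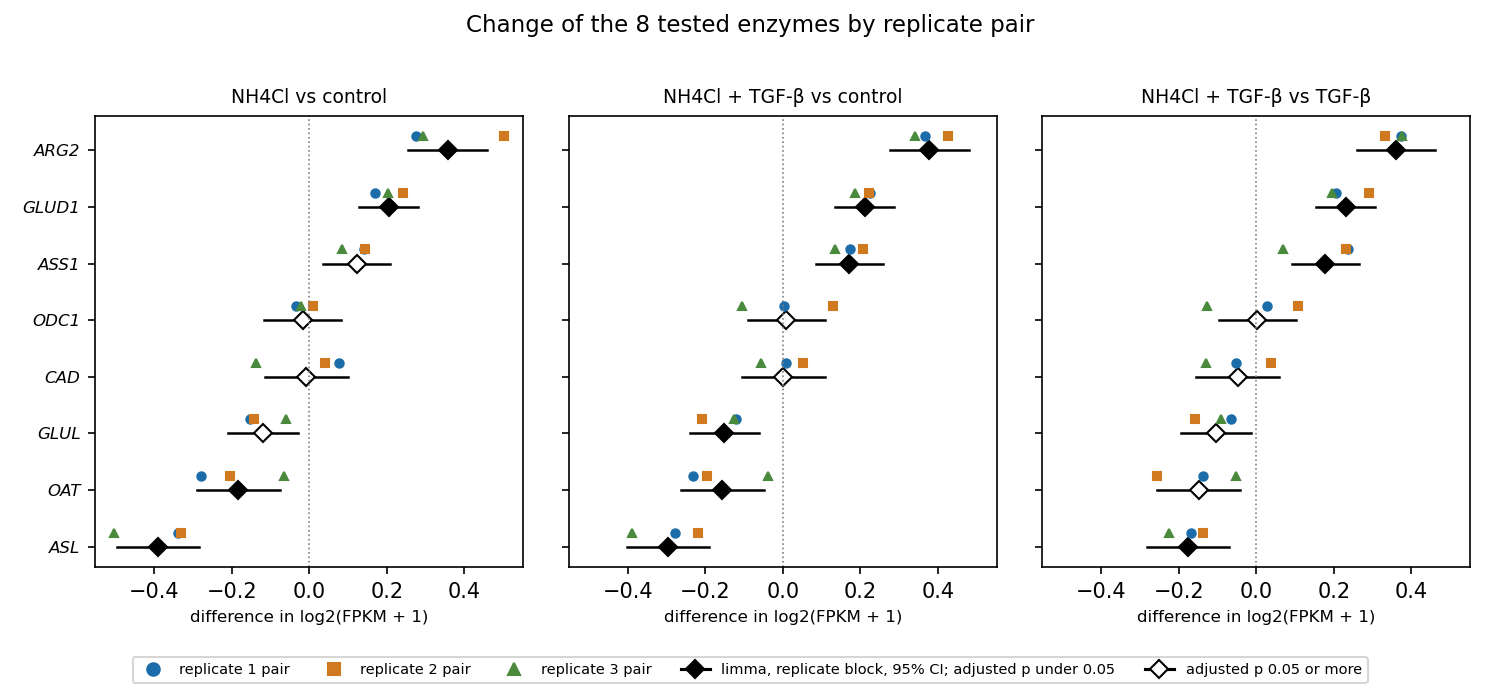
Differences in log2(FPKM + 1) (horizontal axes) for the 8 tested enzymes (vertical axis) in 3 comparisons; coloured symbols are the differences within each replicate number, and diamonds with lines are the limma estimate and 95% confidence interval with the replicate block, filled where adjusted p was under 0.05. With NH4Cl against control, ARG2 (0.36) and GLUD1 (0.20) lie above 0 in each pair, and OAT (−0.18) and ASL (−0.39) lie below 0 in each pair. ASS1 and GLUL, with unfilled diamonds there, also lie above and below 0, respectively, in each pair.

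Of the 8 tested enzymes, 1 passed the threshold with NH4Cl against control in limma without a block, the fall of ASL, where 0.381% of all tested genes passed (0.267% higher and 0.113% lower). With the replicate block 4 passed, GLUD1 and ARG2 higher and ASL and OAT lower, where 13.6% of all tested genes passed (7.42% higher and 6.14% lower). Among the calls over all genes without the block, 33 were higher and 14 lower, a split that became 33 and 23 with each library centred on its median. The median change of the 8 enzymes was −0.012 against 8.4e-05 over all tested genes, and the median absolute change was 0.15 against 0.088. In the limma fit with the replicate block, 5 of the 8 enzymes passed without replicate 3, which stood apart, but 2 passed without replicate 1 and 2 without replicate 2, beside 9.29%, 2.21% and 1.77% of all tested genes. Over the 8 fits run with a block, ASL and ARG2 passed in 8 and GLUD1 and OAT in 6. A block that only sets replicate 3 against the others, added after the data were seen, gave 4 enzymes and 14.5% of all tested genes. Over all genes the block gave 916 higher and 758 lower calls, and 777 and 892 with median centring.

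Cells given both agents were compared with control next, a comparison that shares the control libraries with the one above. Without the block, limma called 0 of the 8 enzymes where 0.948% of all tested genes passed (0.705% higher and 0.243% lower), and 2 of them, ASS1 and ASL, had an unadjusted p under 0.05, as had 13.1% of all tested genes. In the fit with the replicate block 6 passed, 3 higher and 3 lower, where 18.4% of all tested genes passed (10.7% higher and 7.77% lower). ARG2 rose by 0.38 (95% CI 0.28 to 0.48; limma adjusted p = 0.000790), GLUD1 by 0.21 (limma adjusted p = 0.00297) and ASS1 by 0.17 (limma adjusted p = 0.0142), each in 3 of 3 pairs. ASL fell by 0.30 (limma adjusted p = 0.00293, and 0.0637 without the block), OAT fell by 0.16 (limma adjusted p = 0.0497) and GLUL fell by 0.15 (limma adjusted p = 0.0283), each in 3 of 3 pairs. Of the 8 fits with a block ARG2 passed in 8, GLUD1 and ASL in 7, ASS1 in 6, GLUL in 5 and OAT in 4, and 0 of these 6 enzymes passed in any fit without a block that used all 12 libraries or only the groups compared. ODC1 and CAD changed by 0.0083 and 0.00091 (replicate block, limma adjusted p = 0.919 and 0.991). The blocked count of 6 was 5 without replicate 3, 2 without replicate 1 and 2 without replicate 2, beside 13.0%, 5.08% and 5.06% of all tested genes. With median centring the blocked calls over all genes were 1164 higher and 1139 lower.

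The NH4Cl response in cells that also received TGF-β was read from the combined group against TGF-β alone. Without the block, limma called 0 of the 8 enzymes where 1.03% of all tested genes passed (0.778% higher and 0.251% lower), and 2 had an unadjusted p under 0.05, as had 13.3% of all tested genes. With the replicate block 4 passed, ARG2 (0.36, limma adjusted p = 0.000982), GLUD1 (0.23, limma adjusted p = 0.00203) and ASS1 (0.18, limma adjusted p = 0.0123) higher and ASL (−0.18, limma adjusted p = 0.0293) lower, each in 3 of 3 pairs. Of the 8 fits with a block ARG2 passed in 8, GLUD1 in 7, ASS1 in 6 and ASL in 4. In this comparison 18.8% of all tested genes passed with the block (10.3% higher and 8.48% lower), and the count of 4 enzymes was 4 without replicate 3, 2 without replicate 1 and 1 without replicate 2, beside 13.4%, 4.42% and 4.70% of all tested genes. With median centring the blocked calls over all genes were 1203 higher and 1167 lower. With only replicate 3 set against the others 4 enzymes passed again, but OAT did (limma adjusted p = 0.0456) and ASL did not (limma adjusted p = 0.0511). OAT at −0.15 (replicate block, limma adjusted p = 0.0581) and GLUL at −0.10 (limma adjusted p = 0.0994) were lower in 3 of 3 pairs without passing, and VTI1B, which overlaps ARG2, fell by 0.19 (replicate block, limma adjusted p = 0.0386, lower in 3 of 3 pairs).

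At 1 h the differences with TGF-β itself ranged from −0.12 (ASL) to 0.049 (CAD) among the 8 tested enzymes. Against control, limma called 0 of the 8 enzymes with and without the replicate block, and an unadjusted p under 0.05 was reached by 0 of them without the block and by 1, ASL, with it, beside 0.835% and 3.42% of all tested genes. ASL changed by −0.12 with TGF-β (replicate block, limma adjusted p = 1.00), lower in 3 of 3 pairs, and the 7 other enzymes by −0.047 (GLUL) to 0.049 (CAD). For ASL, control replicate 1 (6.266 FPKM) and TGF-β replicate 3 (6.265 FPKM) were almost level. GLUL was also lower, and CAD higher, in 3 of 3 pairs, with overlap between the groups. Over all tested genes 0% passed without the block and 0.00810% with it, which was the single gene ID1 (log2 fold change 0.65, limma adjusted p = 0.0248, higher in 3 of 3 pairs), named after its value was seen. In NH4Cl-treated cells TGF-β likewise gave 0 calls among the 8 enzymes in both limma fits, with 0 at an unadjusted p under 0.05 (1.34% of all tested genes without the block and 7.12% with it). Adjusted, 0% of all tested genes passed without the block and 0.00810% with it, again ID1 (0.62, limma adjusted p = 0.0342, higher in 3 of 3 pairs; 0 genes passed in either comparison with only replicate 3 set against the others). The interaction, the difference between the NH4Cl effects with and without TGF-β, passed for 0 of the 8 enzymes in both fits, with 1 of them, ASL, at an unadjusted p under 0.05 in each (0.932% of all tested genes without the block and 4.35% with it), and for 0% of all tested genes in both.

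Ratios within a library set enzymes that act in sequence or on the same substrate side by side; the pairs were chosen after their values were seen and carry no test. The FPKM ratio of ASS1 to ASL was 17.9, 16.5 and 17.0 in control replicates 1 to 3 and 26.1, 23.8 and 27.1 with NH4Cl, so that the groups did not overlap. With TGF-β this ratio was 18.8, 17.3 and 20.3, and with both agents it was 25.4, 22.7 and 25.5. GLUD1 to GLUL was 4.92, 4.91 and 8.25 in control and 6.25, 6.51 and 9.98 with NH4Cl. ARG2 to OAT was 0.335, 0.305 and 0.633 in control and 0.501, 0.513 and 0.820 with NH4Cl. Both were higher with NH4Cl in 3 of 3 pairs, and both overlapped between the groups because replicate 3 lay above the other replicates.

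**Figure D3:**
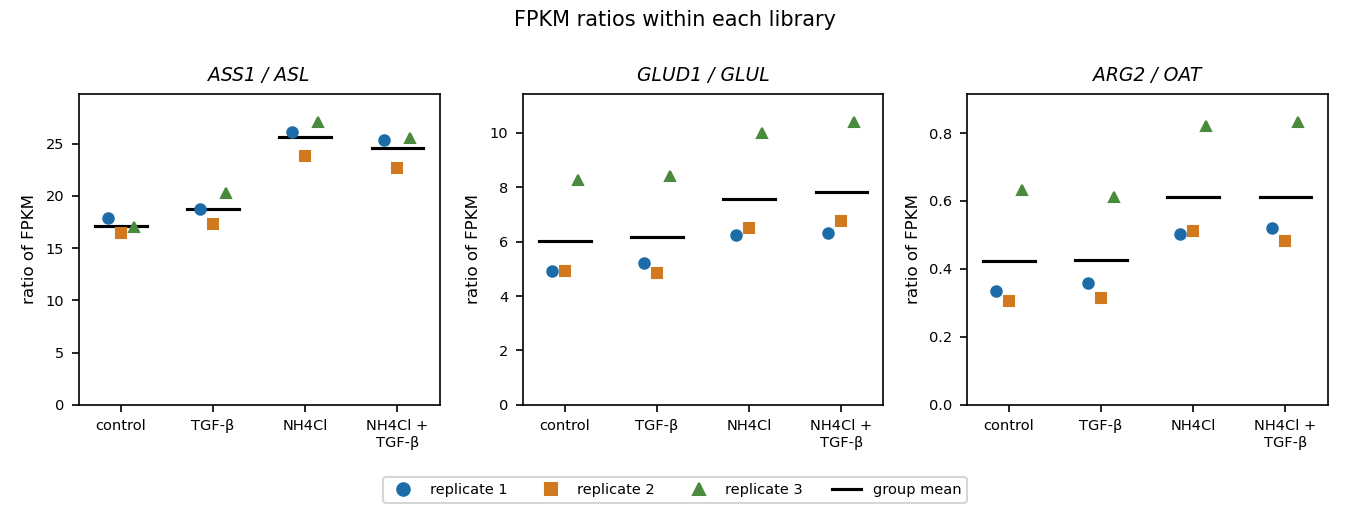
Ratios of FPKM within each library (vertical axes, starting at 0) for 3 enzyme pairs in the 4 groups (horizontal axes); points are single libraries, with 1 symbol for each replicate number, and bars are group means. ASS1 to ASL lies at 16.5 to 17.9 in control and at 23.8 to 27.1 with NH4Cl.

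The surrounding pathway was followed through a list of 65 other genes of nitrogen handling in 8 groups, of which 63 were found, 47 with a mean of at least 1 FPKM and 16 below it, while OTC and SLC25A2 were not analysed here. With NH4Cl against control, limma without a block called 0 of the 47, with 7 at an unadjusted p under 0.05, as had 10.8% of all tested genes. With the replicate block 12 passed, 9 higher and 3 lower, which is 25.5% of the 47 against the 13.6% of all tested genes. The list was chosen with earlier results of these data known, so this share is a description only. Each of these 12 moved the same way in 3 of 3 pairs, which is not separate support since the block rests on those differences. The count was 9 without replicate 3, 3 without replicate 1 and 3 without replicate 2, beside 9.29%, 2.21% and 1.77% of all tested genes. The median change of the 47 was 0.0041, against 8.4e-05 over all tested genes.

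Of the 5 tested genes of glutamate and glutamine exchange 3 passed with the replicate block, all higher, beside 13.6% of all tested genes. Without the block 0 of the 5 passed. Those called included the aspartate aminotransferases GOT1 and GOT2. GOT1 FPKM was 19.1, 18.5 and 21.8 in control and 24.2, 23.98 and 25.9 with NH4Cl, without overlap, a rise of 0.31 (replicate block, limma adjusted p = 0.00153). GOT2 rose by 0.12 (replicate block, limma adjusted p = 0.0400). GLS2, at 0.525 to 1.17 FPKM, and GLUD2, at 0.338 to 0.938 FPKM, were too low to be tested.

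Among enzymes that take the amide nitrogen of glutamine, 3 of 9 passed with the replicate block, beside 13.6% of all tested genes. Without the block 0 of the 9 passed. PPAT, the first step of purine synthesis, rose by 0.21 (replicate block, limma adjusted p = 0.0143). GFPT2 of the hexosamine pathway rose by 0.17 (limma adjusted p = 0.0357), and PFAS, a later purine step, fell by 0.23 (limma adjusted p = 0.0187). Asparagine synthetase (ASNS) changed by −0.016 (replicate block, limma adjusted p = 0.938) and was highest in replicate 3 of each group, at 2.78 to 3.18 FPKM against 0.695 to 1.31 in the other libraries. In the ornithine and proline group 2 of 5 passed with the replicate block, beside 13.6% of all tested genes, and 0 without it. ALDH4A1, which completes proline breakdown to glutamate, was at 7.40, 7.62 and 6.55 FPKM in control and 10.2, 9.86 and 8.46 with NH4Cl, without overlap, and rose by 0.36 (replicate block, limma adjusted p = 0.00211), whereas PYCR3, a reductase that makes proline, fell by 0.35 (limma adjusted p = 0.0196).

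The group listed under ammonia release, which also held CBS, gave 4 calls among 12 tested with the replicate block. Of these 3 were higher and 1 lower, beside 13.6% of all tested genes. Without the block 0 of the 12 passed. Cytidine deaminase (CDA) FPKM was 18.3, 15.2 and 36.6 in control replicates 1 to 3 and 32.4, 35.8 and 57.7 with NH4Cl, the largest change in the list. It rose by 0.87 (95% CI 0.69 to 1.06, replicate block, limma adjusted p = 0.000360, higher in 3 of 3 pairs), although control replicate 3 overlapped with the NH4Cl libraries. Without the block the interval for CDA was −0.016 to 1.76 (limma adjusted p = 0.476). GNPDA1, which deaminates glucosamine 6-phosphate, rose by 0.36 (replicate block, limma adjusted p = 0.000985), guanine deaminase (GDA) rose by 0.18 (limma adjusted p = 0.00645), and SDSL, a serine dehydratase-like enzyme, fell by 0.46 (limma adjusted p = 0.00514), each without overlap between the groups. SDSL rested on only 37 to 95 reads a library. In cells that also had TGF-β the SDSL difference with NH4Cl was −0.066 (replicate block, limma adjusted p = 0.606, lower in 2 of 3 pairs), and TGF-β alone against control gave −0.29 (replicate block, limma adjusted p = 1.00, lower in 3 of 3 pairs). The interaction for SDSL was 0.40 and did not pass (replicate block, limma adjusted p = 0.992).

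The other urea cycle genes, pyrimidine genes and polyamine genes gave 0 calls with NH4Cl in either limma fit, among 4, 2 and 10 tested, with 1, 1 and 3 at an unadjusted p under 0.05 under the replicate block, where 29.05% of all tested genes had one, and 0 without it. NAGS, which makes the activator of CPS1, was at 1.43 to 3.42 FPKM, and ARG1, the cytosolic arginase of liver, had 0 to 3 reads a library. AZIN1, which protects ornithine decarboxylase from antizyme, changed by −0.10 (replicate block, limma adjusted p = 0.254). The ammonia channels RHAG, RHBG and RHCG and the water channel AQP8 reached at most 0.155 FPKM in any library and were not tested.

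**Figure D4:**
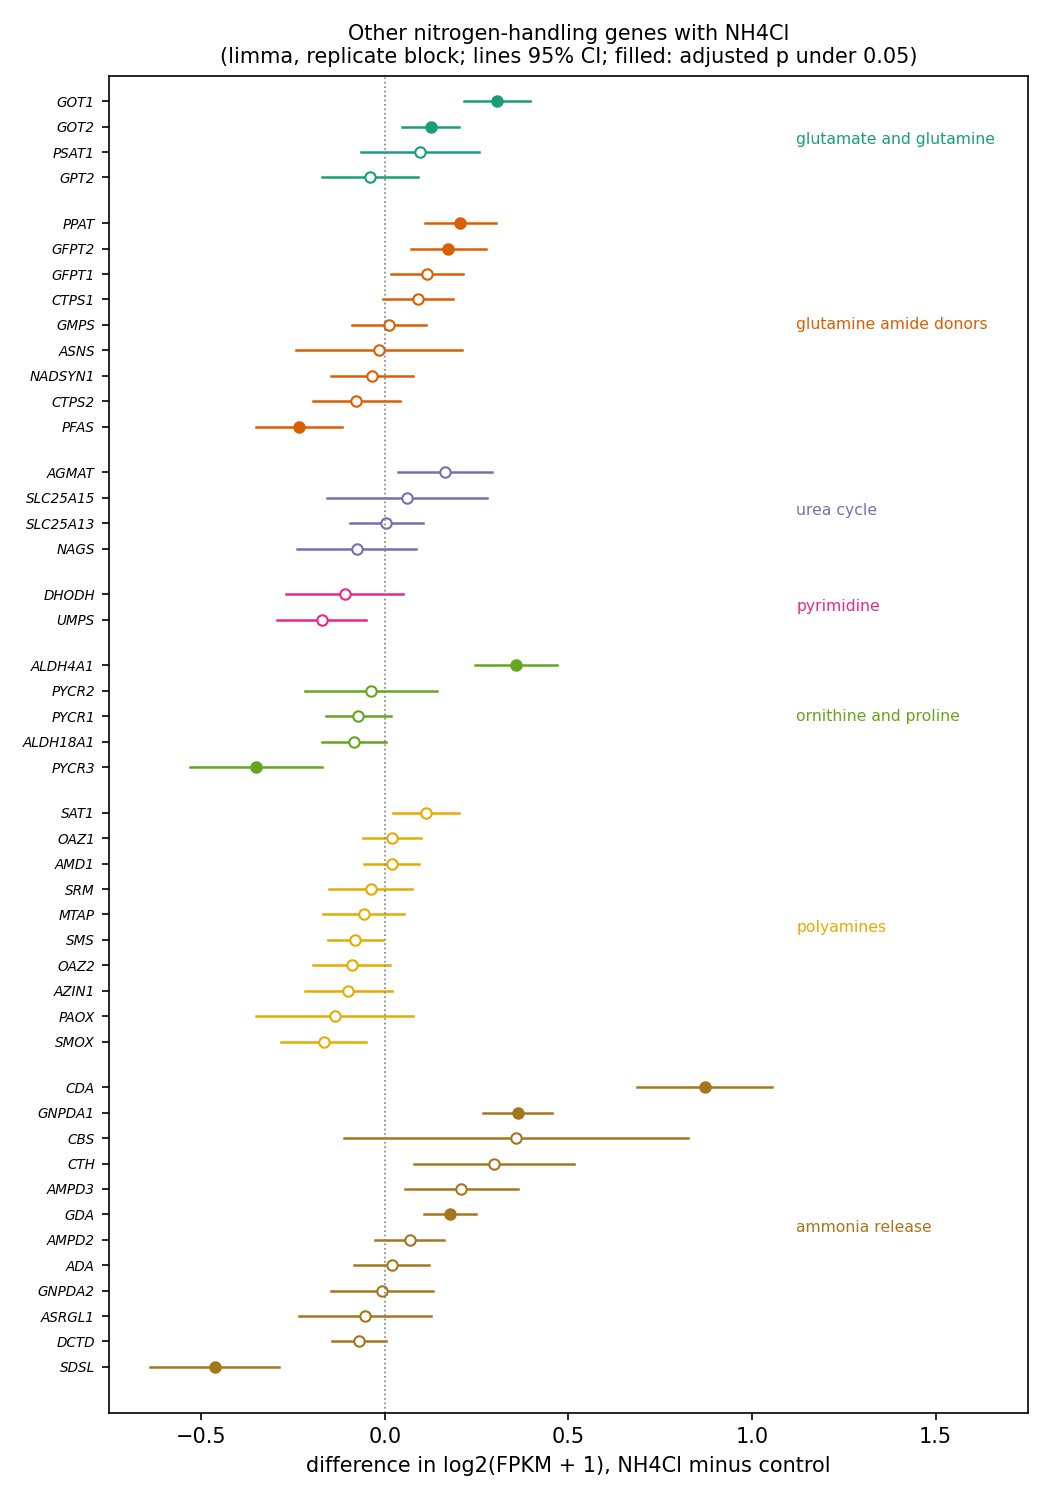
Differences in log2(FPKM + 1) between NH4Cl and control (horizontal axis) for the other nitrogen-handling genes tested (vertical axis, all but 1 of the 47 drawn), coloured by group; lines are 95% confidence intervals of the limma fit with the replicate block, and filled points passed an adjusted p of 0.05. CDA (0.87) lies farthest above 0 and SDSL (−0.46) farthest below.

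With both agents against control, 12 of the 47 passed in limma with the replicate block, 8 higher and 4 lower, beside 18.4% of all tested genes (9, 4 and 6 without replicate 3, 1 or 2, beside 13.0%, 5.08% and 5.06%), and 1 without it, ALDH4A1 (0.45, limma adjusted p = 0.0498, higher in 3 of 3 pairs). That count of 1 was 1 without NH4Cl replicate 3, 2 without TGF-β replicate 3 and 0 without any other library. UMPS, the last enzyme of pyrimidine synthesis, fell by 0.23 (replicate block, limma adjusted p = 0.0187, lower in 3 of 3 pairs), and SAT1, which acetylates polyamines for export or breakdown, rose by 0.21 (replicate block, limma adjusted p = 0.00724, higher in 3 of 3 pairs). Against TGF-β alone 10 of the 47 passed with the replicate block, 8 higher and 2 lower, beside 18.8% of all tested genes (12, 6 and 7 without replicate 3, 1 or 2, beside 13.4%, 4.42% and 4.70%). Without the block 2 passed, ALDH4A1 (0.54, limma adjusted p = 0.0307) and GOT1 (0.41, limma adjusted p = 0.0457), each higher in 3 of 3 pairs. That count of 2 was 2 without control replicate 3, 1 without TGF-β replicate 3, NH4Cl replicate 1 or NH4Cl replicate 3, and 0 without any other library.

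The genes whose profiles were most like those of 3 enzymes were found by Pearson r of log2(FPKM + 1) over the 12 libraries, after the mean of the 4 libraries with the same replicate number had been subtracted; the libraries share their treatments, so r is a description. For GLUL they were METTL7B (0.976), STEAP1 (0.968) and HAS2 (0.967). For ASL they were VSIG10 (0.986), HSPA5 (0.983), an endoplasmic reticulum chaperone, and SLC35B1 (0.974). For ARG2 they were EBP (0.992), an enzyme of cholesterol synthesis, LGALS3 (0.988) and ASB4 (0.983).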

How the data were processed

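RNA of 12 HCT116 libraries was sequenced, and groups and replicate numbers came from the sample labels. The authors deposited FPKM for 25733 genes, 1 column per library. The submitters' processing notes list Trimmomatic 0.36, STAR 2.5.2b, featureCounts of Subread 1.5.2, DESeq2 and GRCh38, whereas the paper's methods name HTSeq for counting and DESeq2; the 2 sources also name different RNA kits. Whether counting used strand is not given in the sources used here.

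All 25733 gene identifiers matched GENCODE 29. FPKM times exon length gave whole reads for 100.0% of values above 0, within 0.02 of a read, hence 14807630 to 18191998 reads per library. Genes whose FPKM averaged 1 or more over the libraries, 12341 in all, were taken to log2(FPKM + 1), which understates changes of low genes. The tests came from limma 3.58.1 under R 4.3.3, with 4 group means over the 12 libraries, moderated with an intensity trend and two-sided, and with Benjamini-Hochberg adjustment over all tested genes; the code was checked on simulated data. Deviations from group means correlated at 0.349 to 0.774 in all 18 pairs of same-numbered libraries and at −0.655 to 0.486 in 36 pairs with different numbers. Replicate 3 correlated with itself at 0.702 to 0.774 and with the others at −0.655 to −0.464, but replicates 1 and 2 correlated with each other (0.341 to 0.486) about as within a number (0.349 to 0.533). The data thus set replicate 3 apart without showing that 1 and 2 are paired by number, and no label says what a number stands for. The fit with the replicate number as a block is printed where it changes a call, and a block of replicate 3 against the others was added after these values were seen. Other steps used Python 3.11.15, numpy 2.4.6, pandas 2.3.3 and matplotlib 3.10.9, and promoters came from RefSeq (GRCh38.p14).

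The 9 enzymes and the lists were chosen with earlier results of these data known. Named genes were the 9 enzymes; in each group of other pathway genes up to 4 with the largest absolute change with NH4Cl among those past the threshold in either fit, with NH4Cl or both agents; genes listed whatever their values, among them GLS2, GLUD2, OTC, NAGS, ARG1, ASNS and AZIN1; and the 3 genes most like GLUL and like the 2 enzymes that changed most with NH4Cl. Genes that overlap an enzyme are named for that reason alone. Alternatives were other pseudocounts, filters, scalings and sets of libraries, no intensity trend, and the replicate block.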

Additional observations from a re-analysis of the deposited data

Results flagged for a closer look

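ASL was flagged because its TGF-β differences had opposite signs without and with NH4Cl in all 3 replicate pairs. Without NH4Cl they were −0.11, −0.082 and −0.16 on the log2(FPKM + 1) scale. With NH4Cl they were 0.060, 0.11 and 0.11. The interaction was 0.21 (unadjusted p = 0.00965 in limma with the replicate block). It rests on the differences by which ASL was flagged, so this p is not separate support. With the block 4.35% of all tested genes had an unadjusted p under 0.05. The interaction did not pass once adjusted over all tested genes (limma adjusted p = 0.992 with the block and 1.00 without).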

How the results depend on the processing

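The counts depended above all on whether the replicate number was a block; the cause of the other shifts was not tested. Of the 8 enzymes, 1 passed with NH4Cl, and 0 with no filter on FPKM (more genes tested), with each library scaled to the same FPKM sum (TPM) or with only the 2 groups compared (fewer libraries), and 0 to 1 with each library left out in turn. In the fit with the replicate block 4 passed, and 4 with the block and TPM, 4 with median centring and 4 with a pseudocount of 0.1, then 2, 2 and 5 with replicates 2 and 3, 1 and 3, and 1 and 2 only. With both agents against control 0 passed without the block and 6, 5, 6, 5, 2, 2 and 5 in these 7 block fits, and against TGF-β 0 passed without it and 4, 4, 5, 4, 2, 1 and 4 with it. For TGF-β against control, both agents against NH4Cl and the interaction, 0 passed in every fit run. Setting only replicate 3 against the others, a block added after the data were seen, gave 4, 6 and 4 enzymes with NH4Cl, with both agents and with both against TGF-β, and 13, 12 and 12 other pathway genes, beside 14.5%, 19.2% and 19.5% of all tested genes. Comparing only 2 groups gives no value for the interaction.

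For the other pathway genes, counts in the same 7 block fits were 12, 12, 12, 12, 3, 3 and 9 with NH4Cl, 12, 12, 13, 12, 4, 6 and 9 with both agents, and 10, 12, 12, 11, 6, 7 and 12 with both against TGF-β. Without the block the count of 1 with both agents became 0 with a pseudocount of 0.1, no filter, median centring, only the groups compared or no intensity trend. The count of 2 against TGF-β became 0 with no filter or only the groups compared and 1 with TPM or no trend, and leaving out libraries gave 0 to 2 for both.

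Under all 16 alternatives other than leaving out single libraries, GLUL, ASL and OAT kept negative and GLUD1, ASS1 and ARG2 positive changes in the 3 comparisons with NH4Cl. ASL with NH4Cl ranged from −0.46 to −0.34 and passed in 13 of the 16 (limma adjusted p 0.00107 to 0.169), and ARG2 ranged from 0.28 to 0.40 and passed in 8 (limma adjusted p 0.00105 to 0.754). CAD and ODC1 changed sign. CAD with NH4Cl was 0.058 with replicates 1 and 2 only. With both agents CAD was −0.012 with median centring, with or without the replicate block, −0.0028 with replicates 2 and 3 and −0.024 with replicates 1 and 3. ODC1 with both agents was −0.0047 with median centring, with or without the block, and −0.052 with replicates 1 and 3, and against TGF-β it was −0.0056, again in both, −0.010 with replicates 2 and 3 and −0.050 with replicates 1 and 3. Leaving out 1 library gave CAD changes of −0.18 to 0.23 with NH4Cl, −0.17 to 0.20 with both and −0.21 to 0.16 with both against TGF-β, and ODC1 changes of −0.074 to 0.043, −0.047 to 0.068 and −0.046 to 0.070. GLUL with both against TGF-β ranged from −0.24 to 0.020, turning positive only without combined-treatment replicate 3. With both against control, leaving out 1 library without a block gave GLUL changes of −0.29 to −0.026 and OAT changes of −0.25 to −0.086. ARG2 changes were 0.18 to 0.59 and GLUD1 changes 0.13 to 0.30. With both against TGF-β the changes were 0.17 to 0.55 for ARG2, 0.15 to 0.33 for GLUD1 and −0.24 to −0.088 for OAT.

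Depth limits CPS1, with 7 to 31 reads a library, and ARG1, and to a lesser degree SDSL, with 37 to 95 reads.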
